A study of Homo sapiens with 16 samples.

Results

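Cyclins D, E and G2 and the kinases that D and E cyclins activate in G1 were followed through 4 comparisons of U2OS cells, a human osteosarcoma line. The genes were chosen by name, with earlier results of these data known, and no measured value enters the rule: CCND1, CCND2, CCND3, CCNE1, CCNE2, CCNG2, CDK2, CDK4 and CDK6. All 9 had a row in each of the 4 tables, out of 23396 genes in any table and 19344 in all of them. The cells received either control siRNA (siControl) or siRNA that targets the transcription factor RFX7 (siRFX7), and then DMSO or 10 µM Nutlin-3a for 24 h. Nutlin-3a blocks MDM2 from binding p53 and so lets p53 accumulate, and DMSO is its solvent. The 4 groups, siControl with DMSO, siControl with Nutlin-3a, siRFX7 with DMSO and siRFX7 with Nutlin-3a, held 4 poly(A) RNA-seq libraries each. All groups share the single cell line and a transfection, and the labels do not say whether the libraries of a group came from separate cultures, so p-values measure the spread between these libraries, which may be technical.

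D-type cyclins bind CDK4 and CDK6, and the active kinases phosphorylate the retinoblastoma protein RB, which releases E2F transcription factors. E2F then drives transcription of E-type cyclins, which activate CDK2 and push the cell from G1 into DNA replication. Active p53 opposes this chain, mainly through the inhibitor p21, the product of CDKN1A, which binds cyclin-CDK complexes. Cyclin G2, from CCNG2, is an unconventional cyclin: it is associated with cell cycle exit rather than entry, and its gene is a textbook target of FOXO factors.

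The deposited tables held one row per gene and comparison, with no value of a single library, so the errors given are the authors' standard errors (SE). Their base means, the mean normalised counts per gene, added up to between 27946400 and 35311100 per library. In the authors' deposited tables RFX7 was at 18.6% of its control level with siRFX7 under DMSO and at 19.4% under Nutlin-3a. With Nutlin-3a, the authors' deposited tables gave MDM2, a p53 target, a log2 fold change of 2.89 in siControl and 2.76 in siRFX7. Of 9 osteoblast lineage markers 7 had a value, and in the authors' deposited tables COL1A1 (base means of 37048 to 39039) and SPARC (27571 to 31574) were abundant, while COL1A2 (at most 13.2) and BGLAP (at most 4.25, absent from the knockdown tables) were low. SP7 and IBSP were the osteoblast markers without a value. Of 8 markers of blood, epithelium, endothelium and liver, 5 had a value in siControl and 3 in siRFX7. Their summed length-scaled level was 8.78 to 8.97 in the siControl groups and 13.0 to 13.4 in the siRFX7 groups. The osteoblast sum was 939 to 1168, but came mainly from COL1A1 and SPARC (344.9 and 573.3 in siControl with DMSO). In that group RUNX2, ALPL and SPP1 were each at 10.2 or less, beside the 8.97 summed over the other markers. The epithelial genes EPCAM and CDH1 were called higher with siRFX7 under both treatments in the authors' deposited tables (log2 fold changes of at least 0.41), and CD3E and ALB gave no value. Their part in the results was not tested.

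Group levels were recovered from each base mean and fold change and divided by exon length, for a rough comparison between genes. The length is the union of all annotated exons of a gene, not that of an expressed transcript. The levels are in normalised counts per kb of exon on a scale where siControl with DMSO adds up to 1000000. Their SD is the one that the SE in the 2 Nutlin-3a tables implies for single libraries (n = 4), taken as common to both groups of a table. It carries no error from the exon length, or from exon bases shared with other genes (43.2% for CDK4, 37.0% for CCNE2). In siControl with DMSO, CCND1 was highest at 280.2 ± 9.96 (SD), followed by CDK4 at 153.0 ± 6.75. CCNE1 (126.0 ± 4.81) and CCND2 (120.4 ± 5.12) came next and lay within their summed SDs of each other. CDK6 was at 102.6 ± 5.17, CDK2 at 90.5 ± 3.43 and CCND3 at 30.9 ± 1.56. CCNE2 (10.6 ± 0.84) and CCNG2 (5.67 ± 0.37) were lowest. Apart from CCNE1 and CCND2, neighbours in this order were further apart than their summed SDs. With the wider SDs of the knockdown table under DMSO (18.1 for CCND2, 10.1 for CDK6), CCND2 and CDK6, and CDK6 and CDK2, also lay within them.

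The order shifted between groups. With Nutlin-3a in siControl, CCND2 (233.2 ± 9.77) moved above CDK4 (129 ± 5.73), CCNG2 (13.7 ± 0.74) moved above CCNE2 (4.87 ± 0.45), and the neighbours CDK6 (108 ± 5.45) and CCNE1 (100.5 ± 3.93) lay within their summed SDs. In siRFX7 with DMSO, CCNE1 (222 ± 9.19) was second to CCND1 (275.5 ± 10.7), and CCND2 (172 ± 27.6) could not be told from CDK4 (149 ± 7.87) on this spread. CDK6 (94.9 ± 6.28) and CDK2 (91.9 ± 3.83) were also within their summed SDs there. In siRFX7 with Nutlin-3a, CCND1 (261 ± 10.2) and CCND2 (237 ± 37.9) lay within their summed SDs, as did CDK4 (112 ± 6.04) and CDK6 (104 ± 6.87), and CCNG2 (4.71 ± 0.48) and CCNE2 (4.21 ± 0.52). The wide SD of CCND2 comes from a table that also holds the siRFX7 libraries with DMSO. The knockdown table under Nutlin-3a gives the same group SDs of 12.8 for CCND2 and 8.88 for CCND1, and the gap of 24.0 between them then exceeds the summed 21.7. CCND2 made up 27.9% of the summed D cyclin level in siControl with DMSO and 39.5% with Nutlin-3a, and 35.8% and 45.4% in siRFX7. CCNE1 made up 92.2% to 97.2% of the summed E cyclin level in the 4 groups.

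**Figure D1:**
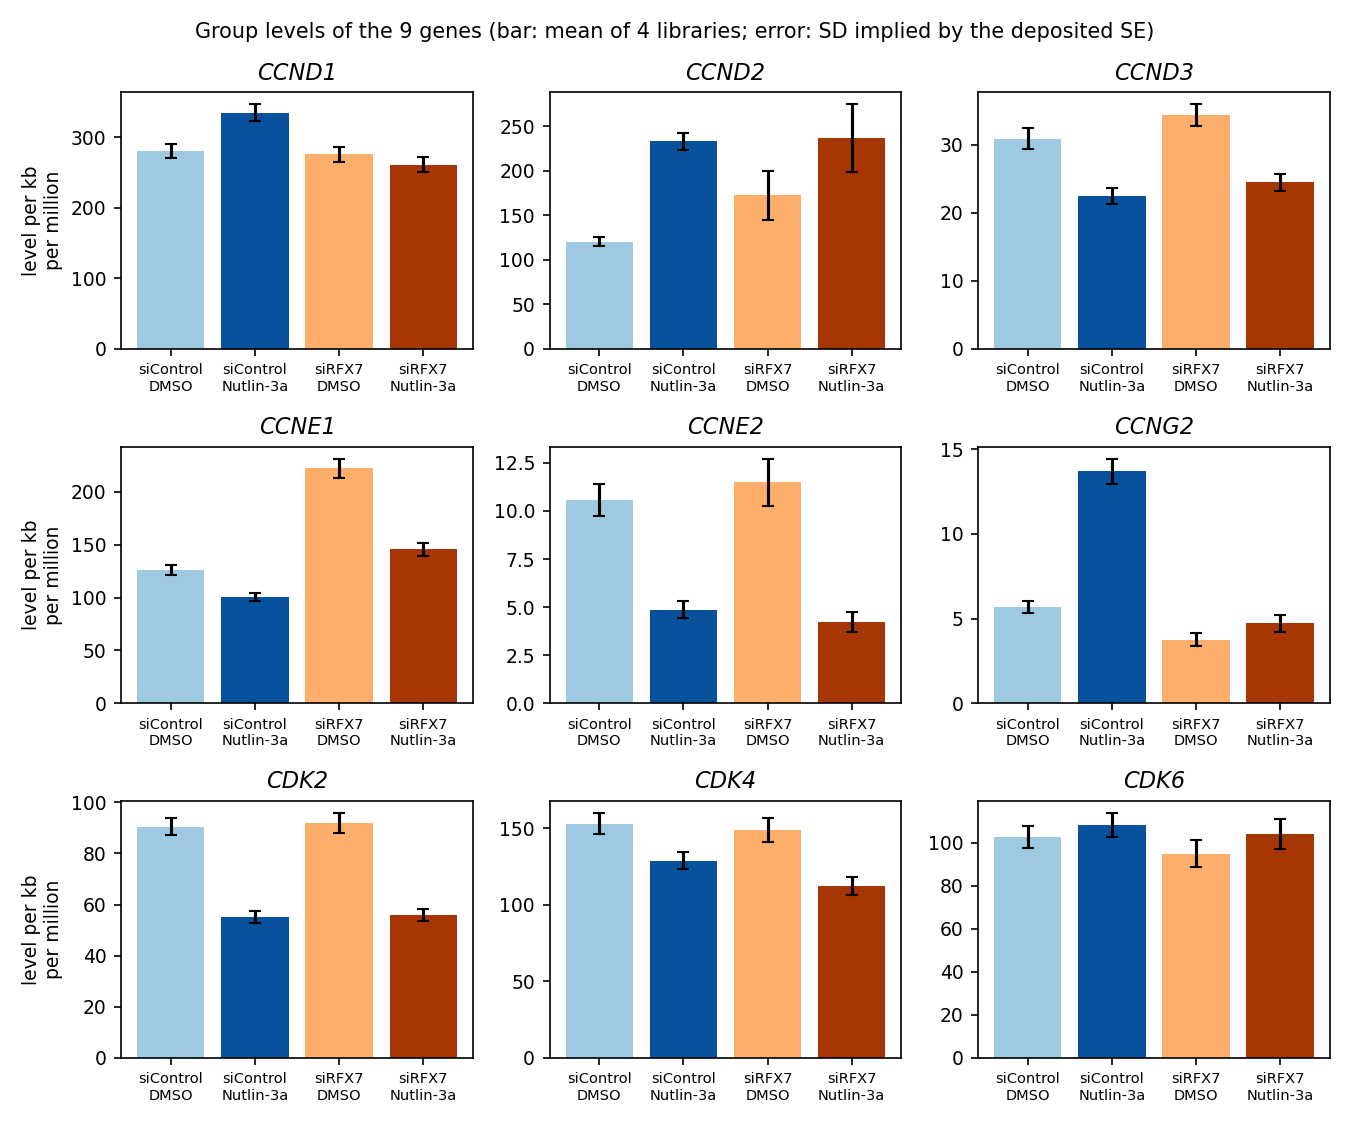
Length-scaled level of each gene (normalised counts per kb of exon, siControl with DMSO adding up to 1000000) in the 4 groups; bars are group means of 4 libraries and error bars are the SD implied by the deposited standard errors. CCNG2 stands at 13.7 in siControl with Nutlin-3a and between 3.76 and 5.67 in the other groups, and CCNE1 is highest in siRFX7 with DMSO.

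With Nutlin-3a in siControl, 3 of the 9 genes were called higher at an adjusted p under 0.05 (CCND1, CCND2 and CCNG2) and 5 lower (CCND3, CCNE1, CCNE2, CDK2 and CDK4), where 18.3% and 19.6% of all 23353 genes were. In siRFX7, 2 were called higher (CCND2 and CCNG2) and the same 5 lower, against 18.7% and 20.3% of 21382 genes. With siRFX7 under DMSO, 3 genes were called higher (CCND2, CCND3 and CCNE1) and 1 lower (CCNG2), against 19.9% and 17.5% of 19511 genes. Under Nutlin-3a, 1 was higher with siRFX7 (CCNE1) and 3 lower (CCND1, CCNG2 and CDK4), against 17.2% and 15.4% of 20335 genes. The shares called in the knockdown comparisons, 4 of 9 under each treatment, were near those of all genes. Those shares include genes with few counts, whereas all 9 had base means above 100. When p-values were adjusted over genes whose base mean reached 100, larger shares were called. These were 8004 of 13525 genes for Nutlin-3a in siControl and 7575 of 12867 in siRFX7, with 8 and 7 members. For siRFX7 they were 6872 of 13170 under DMSO and 6307 of 13177 under Nutlin-3a, with 4 members each. For Nutlin-3a, the authors' deposited tables gave the 9 a median log2 fold change of -0.25 in siControl and -0.40 in siRFX7, against 0.0101 and 0.00899 over all genes. For siRFX7 over siControl it was 0.02 under DMSO and -0.06 under Nutlin-3a by the authors' deposited tables, against -0.00239 and -0.00535. Each group of libraries enters a pair of these tables, so a Nutlin-3a comparison and a knockdown comparison share one group. In bulk RNA, fewer cells in a given phase and less RNA per cell cannot be told apart.

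**Figure D2:**
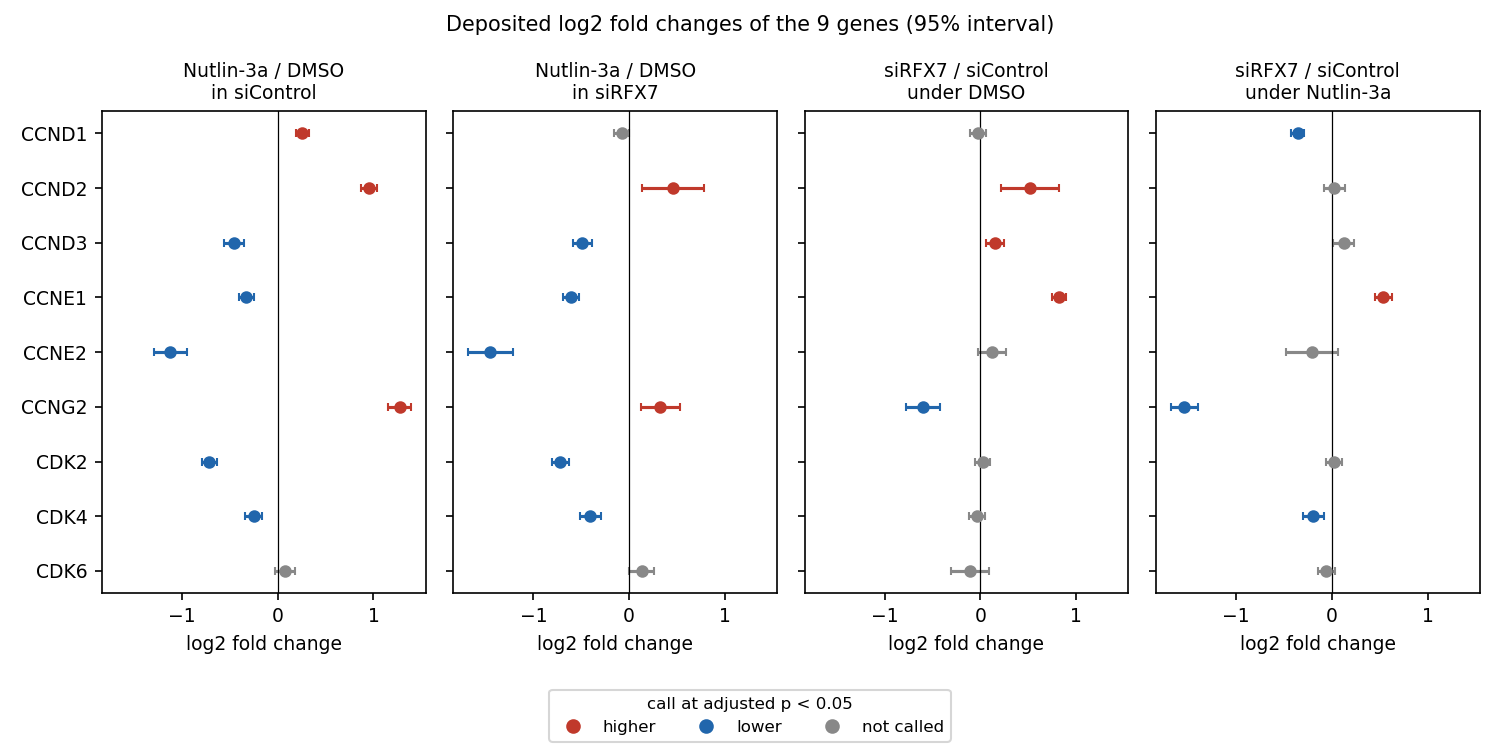
Log2 fold changes of the 9 genes in the 4 deposited comparisons, with 95% intervals from the deposited standard errors; red and blue mark genes called higher and lower at an adjusted p under 0.05. CCND1, CCND2 and CCNG2 lie to the right of 0 with Nutlin-3a in siControl, and CCNG2 has the lowest value in both knockdown comparisons.

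Among D cyclins and their kinases the responses to Nutlin-3a ran in both directions. CCND1 (ENSG00000110092, chromosome 11, 69641087 to 69654474, plus strand), the most abundant D cyclin here and the classical sensor of growth factor signals, rose by 19.5% in siControl (log2 0.26 ± 0.04 SE, adjusted p 1.30e-11) in the authors' deposited table. In siRFX7 the authors' deposited table gave CCND1 -0.08 ± 0.04 (adjusted p 0.113), which did not pass. Its level was 280.2 and 335 in the siControl groups and 275.5 and 261 in the siRFX7 groups, so the siControl group with Nutlin-3a was the high one. Correspondingly CCND1 did not pass for siRFX7 under DMSO (-0.03 ± 0.04 SE, adjusted p 0.678) but under Nutlin-3a fell by 22.0% (-0.36 ± 0.03, adjusted p 2.11e-23), by the authors' deposited tables.

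CCND2 (ENSG00000118971, chromosome 12, 4273772 to 4305350, plus strand), the D cyclin whose level rose most with Nutlin-3a, went from 120.4 to 233.2 in siControl. The authors' deposited table put this at 1.94-fold (log2 0.95 ± 0.04 SE, adjusted p 1.62e-106). In siRFX7 it rose 1.38-fold (0.46 ± 0.16 SE, adjusted p 0.0145) in the authors' deposited table. That call did not hold at an adjusted p under 0.01. With siRFX7 under DMSO it was 1.43-fold higher (0.52 ± 0.15 SE, adjusted p 0.00298), and under Nutlin-3a its value of 0.02 ± 0.06 (adjusted p 0.789) did not pass, both from the authors' deposited tables. CCND3 (ENSG00000112576, chromosome 6, 41934933 to 42050357, minus strand), the third D cyclin, fell with Nutlin-3a by similar amounts in siControl (-0.46 ± 0.05 SE) and siRFX7 (-0.49 ± 0.05) by the authors' deposited tables. With siRFX7, CCND3 was at 0.15 ± 0.05 (SE, adjusted p 0.00447) under DMSO and at 0.12 ± 0.06 (adjusted p 0.0765) under Nutlin-3a by the authors' deposited tables. The call under DMSO depended on the scaling: with each group scaled to its own 1000000 it was 0.09 with an adjusted p of 0.137.

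CDK4 (ENSG00000135446, chromosome 12, 57747727 to 57756013, minus strand) with Nutlin-3a fell by 15.9% in siControl (-0.25 ± 0.05 SE, adjusted p 2.49e-07) and fell by 24.4% in siRFX7 (-0.40 ± 0.05, adjusted p 1.39e-12) by the authors' deposited tables. With siRFX7 it was lower under Nutlin-3a (-0.19 ± 0.06 SE, adjusted p 0.00285) and did not pass under DMSO (-0.04 ± 0.04, adjusted p 0.501) by the authors' deposited tables. CDK4 shares 43.2% of its exon bases in GENCODE 29 with TSPAN31 on the opposite strand, and the authors' deposited tables had TSPAN31 higher with Nutlin-3a (0.68 in siControl, 0.77 in siRFX7). The library kit keeps strand, but whether the counting used it is not given in the sources used here, so reads of this stretch could be shared or lost. CDK2 (14.5%, AC025162.1) and CCND1 (10.3%, LTO1) also share exon bases with a gene on the opposite strand. CCND2 shares 13.8% with AC008012.1 on the same strand, which stranded counting would not separate. CDK6 (ENSG00000105810, chromosome 7, 92604921 to 92836594, minus strand), the other partner of D cyclins, passed in none of the 4 comparisons. Its log2 fold changes in the authors' deposited tables were 0.08 ± 0.05 (SE) and 0.13 ± 0.07 with Nutlin-3a, and -0.11 ± 0.10 and -0.06 ± 0.05 with siRFX7, adjusted p 0.115 to 0.411. With each group scaled to its own 1000000, CDK6 was called lower with siRFX7 under Nutlin-3a (-0.13, adjusted p 0.0209), and CDK4 under DMSO (-0.11, adjusted p 0.0367).

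E cyclins and CDK2, which act at the G1/S transition, all fell with Nutlin-3a. CCNE1 (ENSG00000105173, chromosome 19, 29811898 to 29824308, plus strand) went from a level of 126.0 to 100.5 in siControl and from 222 to 146 in siRFX7. The authors' deposited tables gave changes of -20.2% (log2 -0.33 ± 0.04 SE, adjusted p 1.91e-15) and -34.4% (-0.61 ± 0.04, adjusted p 6.23e-44). With siRFX7 it was 1.76-fold higher under DMSO (0.82 ± 0.04 SE, adjusted p 1.36e-105) and 1.45-fold higher under Nutlin-3a (0.54 ± 0.04, adjusted p 3.24e-31) by the authors' deposited tables. Both siRFX7 groups thus stood above both siControl groups, and the 0.82 under DMSO exceeded the log2 fold change of 98.3% of the genes in that table. CCNE1 was the one gene of the 9 called higher with siRFX7 under both treatments.

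CCNE2 (ENSG00000175305, chromosome 8, 94879770 to 94896678, minus strand), the less abundant E cyclin and an E2F target, fell with Nutlin-3a to 46.0% of its DMSO level in siControl and to 36.6% in siRFX7. Those values correspond to -1.12 ± 0.09 (SE, adjusted p 5.42e-36) and -1.45 ± 0.12 (adjusted p 7.76e-33) by the authors' deposited tables, the deepest falls among the 9 genes. With siRFX7 it did not pass under DMSO (0.12 ± 0.07 SE, adjusted p 0.204) or Nutlin-3a (-0.21 ± 0.14, adjusted p 0.265) by the authors' deposited tables. CCNE2 shares 37.0% of its exon bases with INTS8 on the opposite strand, which in the authors' deposited tables did not pass with Nutlin-3a (-0.10 in siControl, 0.11 in siRFX7). With siRFX7, the authors' deposited tables had INTS8 lower under DMSO (-0.30 ± 0.05 SE, adjusted p 1.26e-07, base mean 1311 beside 482 for CCNE2) and not called under Nutlin-3a (-0.08 ± 0.05, adjusted p 0.243). CDK2 (ENSG00000123374, chromosome 12, 55966769 to 55972784, plus strand), the kinase of E cyclins, fell by 39.1% in siControl and fell by 39.2% in siRFX7, both -0.72 ± 0.04 (SE) by the authors' deposited tables. With siRFX7 its values were 0.02 ± 0.04 (SE) under DMSO and 0.02 ± 0.04 under Nutlin-3a (adjusted p 0.704 and 0.756) by the authors' deposited tables.

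CCNG2 (ENSG00000138764, chromosome 4, 77157151 to 77433388, plus strand) had the strongest rise with Nutlin-3a of the 9 genes in siControl and the lowest values with siRFX7. Its level went from 5.67 to 13.7 in siControl, which the authors' deposited table gave as 2.42-fold (log2 1.27 ± 0.06 SE, adjusted p 7.81e-96). In siRFX7 it went from 3.76 to 4.71, or 1.25-fold (0.33 ± 0.11 SE, adjusted p 0.00661) in the authors' deposited table. The siRFX7 group with Nutlin-3a therefore stayed below the siControl group with DMSO. With siRFX7, CCNG2 fell by 33.9% under DMSO (-0.60 ± 0.09 SE, adjusted p 5.12e-10) and fell by 65.7% under Nutlin-3a (-1.54 ± 0.07, adjusted p 6.55e-100), by percentages computed from the authors' deposited tables.

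The sequence below shows a word in the 3′ UTR of CCNG2 that it shares with CDK6 and that other genes lower with siRFX7 also carry. The 7 bases GTATCTA, capitals in each line, are the word that an earlier scan of these same fold changes picked out, so their presence is not independent evidence. The transcript sequences are GENCODE 29 on GRCh38, written 5′ to 3′ on the gene's strand. The CCNG2 window lies at chr4:77166684-77166712 (plus strand) and the CDK6 window at chr7:92607460-92607488 (minus strand).
CCNG2: ttgaaaactcaGTATCTAtggaattgata
CDK6: tagtattttggGTATCTAggtgttttatc

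The word starts at base 771 of the 4135 bases of the CCNG2 3′ UTR and at base 7663 of the 10219 of CDK6, and the 3′ UTRs of the other 7 genes do not hold it on the transcripts used. Of protein-coding genes whose base mean reached 100, 820 of 11289 (7.26%) carried it under DMSO. Their median log2 fold change with siRFX7 was -0.17 under DMSO and -0.12 under Nutlin-3a, against 0.02 for genes without it in both authors' deposited tables. The word was picked from these same fold changes, so the lower medians of carriers are no separate support. CCNG2 lay below that median in both, with 112 carriers lower than it under DMSO and 4 under Nutlin-3a, while CDK6 did not pass in either. Of the other cyclins, CCNA2, CCNG1 and CCNL1 also carry it. With siRFX7, CCNA2 (-0.51 ± 0.04 SE, -0.82 ± 0.04) and CCNG1 (-0.28 ± 0.05, -0.29 ± 0.04) were lower under both treatments, and CCNL1 (-0.07 ± 0.06, -0.13 ± 0.07, adjusted p 0.406 and 0.144) did not pass, by the authors' deposited tables. Of the other CDKs, CDK13 holds the word 2 times and did not pass with siRFX7 (0.09 ± 0.04 SE, 0.10 ± 0.05) by the authors' deposited tables. For the response to Nutlin-3a, the median difference between siRFX7 and siControl was 0.03 among carriers, against -0.0018 without the word. None of 826 carriers had a lower difference than CCNG2. A median over carriers does not bear on a single gene. The part of the word in the lower CCNG2 level or response was not tested. A second word from that scan, GACGTA, is in none of the 9 3′ UTRs.

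RefSeq promoters (GRCh38.p14, 250 bases before to 50 after the start) were at hand for 5 of the 9 genes, CCND3, CCNE1, CCNG2, CDK4 and CDK6, with 8 starts in all. On both strands, none of the 8 held the RFX site letters GTTGCC, the CHR letters TTTGAA or TTCGAA, or the E2F letters TTTGGCG or TTTCGCG, in windows where 12.2%, 16.4% and 3.19% of 35116 promoters did. This says only that these letters are not in these windows.

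Whether the response to Nutlin-3a differed between siRFX7 and siControl was tested by the difference of the log2 fold changes, siRFX7 minus siControl, since these tables share no library. Of the 9 genes, 3 had a lower response in siRFX7 (two-sided normal test, adjusted after Benjamini and Hochberg, p under 0.05), CCNG2, CCND1 and CCNE1, where 0.764% of 21339 genes did. None had a higher one. The difference was -0.94 ± 0.12 (SE) for CCNG2 (adjusted p 1.78e-11, 95% interval -1.18 to -0.71), so the fold rise in siRFX7 was 0.519 of that in siControl. For CCND1 it was -0.33 ± 0.05 (SE, adjusted p 4.40e-07, interval -0.44 to -0.23), and for CCNE1 -0.28 ± 0.06 (adjusted p 0.000463, interval -0.40 to -0.17). These 3 lower responses are of different kinds: a smaller rise for CCNG2, a rise that was not detected in siRFX7 for CCND1, and a deeper fall for CCNE1.

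The other 6 differences did not pass. CCND2 had a sizeable but imprecise value of -0.49 ± 0.17 (SE, adjusted p 0.203, unadjusted p 0.00343), with a 95% interval of -0.82 to -0.16. CCNE2 was at -0.33 ± 0.15 (SE, adjusted p 0.619) and CDK4 at -0.15 ± 0.07 (adjusted p 0.644). CDK2 (-0.00125 ± 0.06 SE, interval -0.12 to 0.11), CCND3 (-0.03 ± 0.07, interval -0.17 to 0.11) and CDK6 (0.05 ± 0.08, interval -0.11 to 0.22) were near 0, which bounds their differences within 0.22 on the log2 scale at that confidence. The median of the 9 differences was -0.28, against -0.000553 over all genes.

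**Figure D3:**
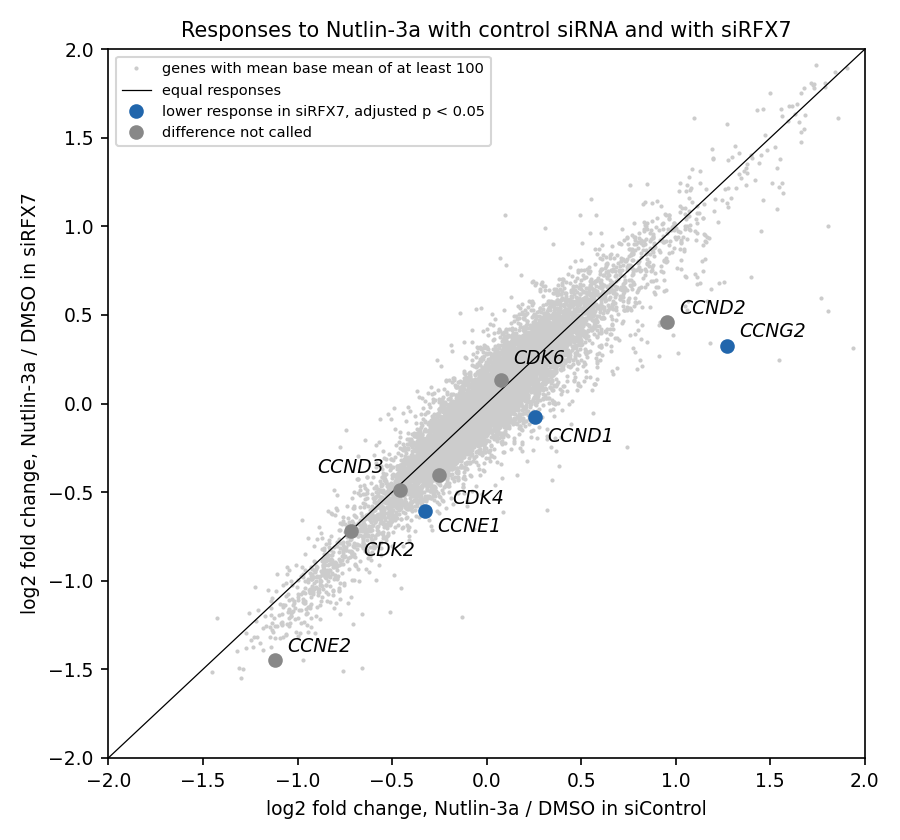
Log2 fold change with Nutlin-3a in siControl (horizontal) and in siRFX7 (vertical) for genes whose mean base mean reached 100 (grey) and the 9 genes (labelled), with a line of equal responses; values beyond 2 in size are outside the frame. CCNG2, CCND1 and CCNE1 (blue) lie below the line with adjusted p under 0.05, and CDK2, CCND3 and CDK6 lie close to it.

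The precision differed between genes and tables. In the authors' deposited tables the SE of CCND2 was 0.16 for Nutlin-3a in siRFX7 and 0.15 for siRFX7 under DMSO, which is 4.11 and 3.99 times the median SE of 200 genes of like base mean and above all 200. In the other tables it was 0.04 and 0.06, at most 1.34 times that median. The implied spread between libraries, beyond counting, was 16.0% and 15.0% in the first pair and 4.12% and 5.36% in the second. CDK6 had the same ordering, with an SE 1.71 and 2.61 times the median of like genes in the first pair of tables and 1.32 and 1.14 times in the second. The first pair are the tables that contain the siRFX7 libraries with DMSO. No library could be looked at singly, so which of them deviated was not tested. For the other 7 genes the SE was 0.87 to 1.30 times that of genes of like base mean in all 4 tables.

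**Figure D4:**
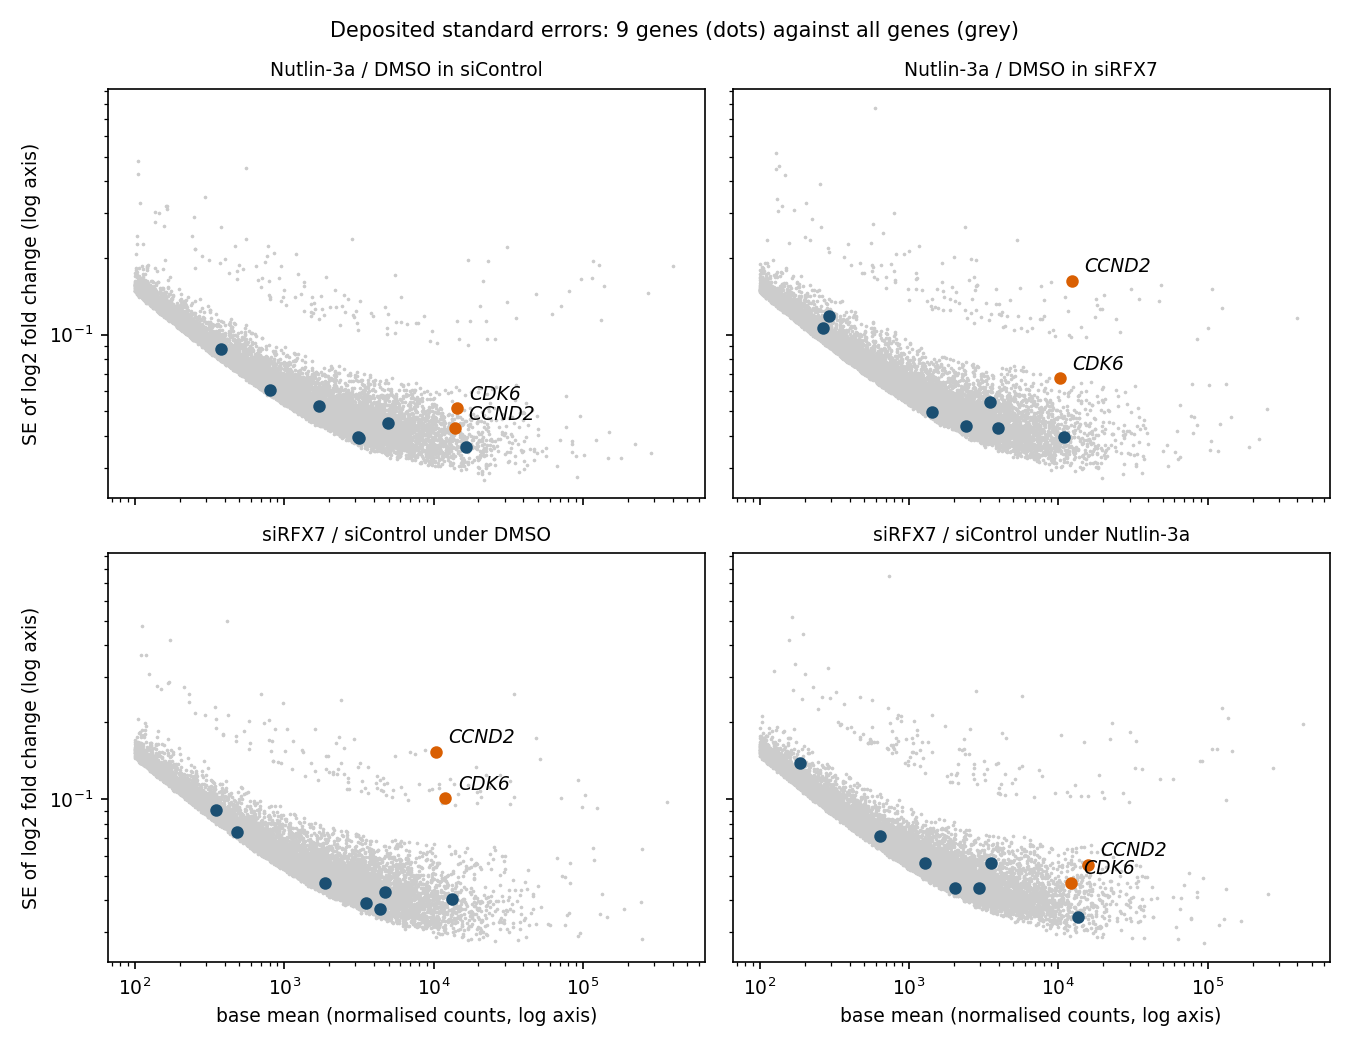
Standard error of the log2 fold change against base mean (both log axes) in the 4 deposited tables, for genes whose base mean reached 100 (grey), CCND2 and CDK6 (orange) and the other 7 genes (dark blue). CCND2 stands far above genes of like base mean in the tables for Nutlin-3a in siRFX7 and for siRFX7 under DMSO, and close to them in the other tables.

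Genes that act on the same chain were taken from 7 lists and are given by counts in the authors' deposited tables. The shares of all genes called higher and lower, against which the counts are to be read, were 18.3% and 19.6% with Nutlin-3a in siControl and 18.7% and 20.3% in siRFX7. For siRFX7 over siControl they were 19.9% and 17.5% under DMSO and 17.2% and 15.4% under Nutlin-3a. These shares include genes with few counts. Larger shares of the genes whose base mean reached 100 were called, as given with the 9 genes. A lower response to Nutlin-3a in siRFX7 was called for 0.764% of 21339 genes. Of 7 CDK inhibitors, 6 had a value in siControl, where 2 were higher and 3 lower with Nutlin-3a (median 0.02). CDKN1A rose by 3.24 ± 0.04 (SE) in siControl and 2.98 ± 0.04 in siRFX7 by the authors' deposited tables, and the responses differed by -0.26 ± 0.05 (adjusted p 0.000305). CDKN2C, the p18 inhibitor of CDK4 and CDK6, fell in the authors' deposited tables (-1.24 ± 0.05 SE in siControl, -1.38 ± 0.07 in siRFX7), and so did CDKN1B, the p27 gene (-0.45 ± 0.05 and -0.65 ± 0.05). CDKN2D was lower in both (-0.54 ± 0.11 SE, -0.64 ± 0.13), and CDKN1C was higher in siControl (0.55 ± 0.19) and did not pass in siRFX7 (0.12 ± 0.24, adjusted p 0.748), by the authors' deposited tables. With siRFX7, 5 inhibitors had a value: CDKN1A (0.60 ± 0.04 SE under DMSO, 0.33 ± 0.04 under Nutlin-3a) and CDKN1B (0.46 ± 0.05, 0.26 ± 0.06) were higher under both treatments and CDKN2C lower (-0.26 ± 0.05, -0.39 ± 0.08) by the authors' deposited tables. CCNE1 and these 2 inhibitors of its kinase were thus all higher with siRFX7.

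Among 13 RB, E2F and DP genes, 2 were higher and 7 lower with Nutlin-3a in siControl (median -0.18), and 2 higher and 8 lower in siRFX7 (median -0.19), by the authors' deposited tables. E2F2 (-1.45 ± 0.07 SE, -1.52 ± 0.06) and E2F8 (-1.32 ± 0.07, -1.40 ± 0.08) fell furthest in both authors' deposited tables. RBL2, which encodes the pocket protein p130, rose slightly (0.22 ± 0.04 SE, 0.13 ± 0.05) by the authors' deposited tables. With siRFX7, 5 of the 13 were higher and 1 lower under each treatment, where 19.9% and 17.5% of all genes were under DMSO and 17.2% and 15.4% under Nutlin-3a. E2F2 (0.70 ± 0.05 SE, 0.64 ± 0.07) was the highest and E2F7, a repressor E2F, the lower one (-0.13 ± 0.04, -0.39 ± 0.04) by the authors' deposited tables. Of the 13, E2F7 and RBL1 hold the word GTATCTA in the 3′ UTR, and E2F2, E2F3 and RBL2 hold GACGTA. Both words were picked from these same fold changes, and their part was not tested. E2F7 rose with Nutlin-3a in siControl (0.33 ± 0.04 SE) and did not pass in siRFX7 (0.06 ± 0.04, adjusted p 0.292) by the authors' deposited tables, and the responses differed by -0.27 ± 0.06 (adjusted p 0.00254).

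Of 14 E2F-driven S phase genes, 13 were lower with Nutlin-3a in siControl and 14 in siRFX7, with medians of -1.01 and -1.17 by the authors' deposited tables. CDC45 (-1.27 ± 0.05 SE, -1.38 ± 0.05) and MCM2 (-1.18 ± 0.04, -1.39 ± 0.04) of the replicative helicase had the lowest values by the authors' deposited tables, close to those of CCNE2. In siRFX7 2 of the 14 had a lower response, MCM2 (difference -0.20 ± 0.05 SE, adjusted p 0.0170) and PCNA (-0.22 ± 0.05, adjusted p 0.00816), and the list's median difference was -0.15. With siRFX7 under Nutlin-3a, 8 were lower and 1 higher, and under DMSO 4 lower and 3 higher, by the authors' deposited tables. PCNA (-0.30 ± 0.04 SE) was lowest under Nutlin-3a and RRM2 highest under both treatments (0.32 ± 0.04 and 0.17 ± 0.05) by the authors' deposited tables.

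Among 17 other cyclins 16 had a value, and 2 were higher and 7 lower with Nutlin-3a in each siRNA group, by the authors' deposited tables. CCNG1, the close relative of CCNG2 and a p53 target, rose by 1.06 ± 0.05 (SE) in siControl and 1.04 ± 0.04 in siRFX7 by the authors' deposited tables, and its difference did not pass. CCNA2 and CCNF fell most, with values in siRFX7 of -1.31 ± 0.04 (SE) and -1.14 ± 0.04 by the authors' deposited tables. The response was lower in siRFX7 for CCNB1 (-0.32 ± 0.06 SE), CCNA2 (-0.31 ± 0.06), CCNF (-0.25 ± 0.06) and CCNB2 (-0.22 ± 0.06), with adjusted p 1.16e-05 to 0.0351. With siRFX7, CCNA2 was lower under DMSO (-0.51 ± 0.04 SE) and Nutlin-3a (-0.82 ± 0.04) by the authors' deposited tables, opposite to CCNE1. Of 13 other CDKs, 1 was higher and 4 lower with Nutlin-3a in siControl, and 1 higher and 5 lower in siRFX7, by the authors' deposited tables. CDK1, the mitotic kinase, fell furthest (-0.91 ± 0.06 SE, -1.05 ± 0.07) and CDK18 rose (0.61 ± 0.06, 0.70 ± 0.07) by the authors' deposited tables. The 1 and 4 of 13 in siControl are near the 18.3% and 19.6% of all genes. None of the 13 differed in response by the normal test with Benjamini-Hochberg adjustment.

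Of 10 genes of CDK activation and cyclin turnover, 1 was higher and 5 lower with Nutlin-3a in siControl, and 1 higher and 4 lower in siRFX7, by the authors' deposited tables. FBXW7, which targets cyclin E for degradation, rose (0.77 ± 0.06 SE, 0.69 ± 0.05), and CDC25A, the phosphatase that activates CDK2, fell (-1.09 ± 0.05, -1.33 ± 0.05) by the authors' deposited tables. SKP2, which targets p27, fell in both (-0.82 ± 0.05 SE, -0.62 ± 0.06) by the authors' deposited tables. None of the 10 responses differed by the test of the difference. Of 7 transcriptional regulators tied to CCND1 or CCNG2, 4 were higher and none lower with Nutlin-3a in siControl, and 3 were higher and 2 lower in siRFX7, by the authors' deposited tables. Among these, FOXO4 (0.27 ± 0.07 SE, 0.22 ± 0.08) and FOSL1 (0.30 ± 0.05, 0.14 ± 0.05) were higher in both authors' deposited tables. FOXO3 did not pass in siControl (-0.10) and fell in siRFX7 (-0.19 ± 0.06 SE) by the authors' deposited tables. MYC did not pass in siControl (-0.06 ± 0.04 SE, adjusted p 0.294) and fell in siRFX7 (-0.27 ± 0.04) by the authors' deposited tables, and the responses differed by -0.21 ± 0.06 (adjusted p 0.0410). With siRFX7, 4 of the 7 were higher and 1 lower under DMSO, and 1 higher and 1 lower under Nutlin-3a. FOXO1 was among those higher under DMSO (0.32 ± 0.08 SE), opposite to CCNG2, and did not pass under Nutlin-3a, by the authors' deposited tables. The 3′ UTR of FOXO1 holds the word GACGTA 2 times. The AP-1 genes went opposite ways: FOSL1 was higher (0.35 ± 0.05 SE under DMSO, 0.19 ± 0.05 under Nutlin-3a) and JUN lower (-0.22 ± 0.03, -0.29 ± 0.04) by the authors' deposited tables.

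**Figure D5:**
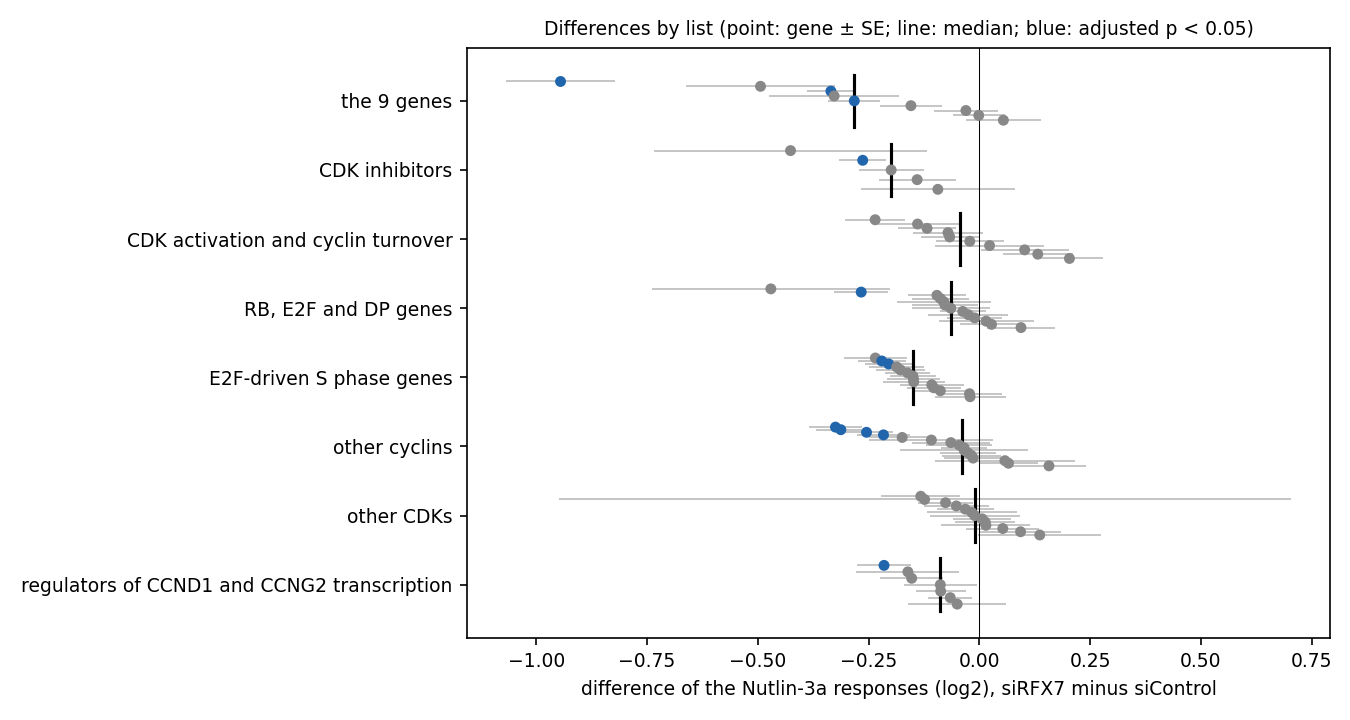
Difference of the Nutlin-3a responses (log2, siRFX7 minus siControl) for the 9 genes and the genes of 7 related lists; points are genes with SE bars, black lines are list medians, and blue marks an adjusted p under 0.05. CCNG2 is the lowest point at -0.94, and called genes of all lists lie to the left of 0.

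Genes with the pattern most like each of the 9 were found by the Euclidean distance over the 4 deposited log2 fold changes, among 12177 genes whose base mean reached 100 in every table. Nearest to CCNG2 were PNRC1 (distance 0.38), PDCD4 (0.38) and ABAT (0.46). In the authors' deposited tables PNRC1 rose by 1.54 in siControl and 0.25 in siRFX7 with Nutlin-3a, and PDCD4 by 0.99 and 0.39, beside 1.27 and 0.33 for CCNG2. Nearest to CCND1 were TMEM52B (0.05), MAFA (0.06) and LAYN (0.10), and nearest to CCNE1 were ADAMTS6 (0.08), MED21 (0.18) and GRWD1 (0.21). TMEM52B and MAFA had few counts (mean base means of 129 and 159). The SEs of their response differences, 0.20 for each, exceeded their distances from CCND1. CCNE2 was nearest to CDT1 (0.12), MCM2 (0.13) and AUNIP (0.16), of which CDT1 and MCM2 act in replication licensing. For CDK2 the nearest were DEK (0.03), ANP32E (0.04) and POLD1 (0.04). Nearest to CCND2 were KRT17 (0.19), ZSWIM4 (0.23) and PLEKHF1 (0.23). CCND3 was nearest to ACTG1P14, CTCF and GLI2 (0.02 to 0.03), CDK4 to ATP6V0B, CHST6 and EXO5 (0.04 to 0.05), and CDK6 to SNX7, ZNF75A and MKRN1 (0.02 to 0.03). No member was among the 3 nearest genes of another, and the closest pair, CCND3 and CDK2, lay 0.38 apart. The 4 tables share groups, so these distances rest on 4 group means per gene and carry no test.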

How the data were processed

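Poly(A) RNA of 16 U2OS libraries in 4 groups of 4, assigned from their titles, was compared by the authors. Per the submitters' processing notes, the authors used featureCounts 1.6.5 and DESeq2 1.20.0 on hg38; the aligner and annotation are not given in the sources used here. The base mean is a deposited signal, the authors' mean normalised count. The log2 fold changes, their SEs, the Wald score and the p-value and adjusted p-value were used as deposited, per the file headers. The counts were not refitted.

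Direction was read from the closure of the 4 tables over 19344 genes (SD of the gap 0.00291 on the log2 scale, 0.514 with a pair inverted) and from RFX7. The SE of a difference was the root of the summed squared SEs. Group means came from base mean and fold change, exon lengths, positions and transcripts from GENCODE 29, and the tables were tied through shared groups. The test of the difference and the recovery of levels were tested on simulated data. All 9 genes were named, with 3 nearest genes each, and per list and comparison the 2 highest and 2 lowest called genes. Members and lists were chosen with earlier results of these data known. Alternatives were stricter thresholds, a base mean filter, centring, the knockdown tables, robust scaling and, added later, a scaling of each group to its own total. Computation used Python 3.11.15, pandas 2.3.3 and scipy 1.17.1.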

Additional observations from a re-analysis of the deposited data

Results flagged for a closer look

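The effect of Nutlin-3a differed between the siRNA groups for 3 of the 9 genes, by the test of the difference of the log2 fold changes (siRFX7 minus siControl, two-sided normal test, Benjamini-Hochberg adjustment over 21339 genes). For CCNG2 the difference was -0.94 ± 0.12 (SE, adjusted p 1.78e-11). For CCND1 it was -0.33 ± 0.05 (SE, adjusted p 4.40e-07), with a rise of 0.26 in siControl and -0.08 in siRFX7. For CCNE1 it was -0.28 ± 0.06 (SE, adjusted p 0.000463), with falls of -0.33 and -0.61.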

How the results depend on the processing

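Requiring a size of at least 1 on the log2 scale cut the members called to 2 and 1 of 9 for Nutlin-3a in siControl and siRFX7, to 0 and 1 for siRFX7 under DMSO and Nutlin-3a, and to 0 for the difference of the responses, by the construction of that rule (929, 862, 299, 298 and 14 genes were called over each table). With a threshold of 0.01, a size of 0.25, a base mean of at least 100, centring on the median, the knockdown tables or robust scaling, the counts of members stayed within 1.5 times. Under the base mean filter, the centring and, for the differences, the knockdown tables and the robust scaling, each gene's call and the direction of each called value also held. The difference taken from the knockdown tables is the same contrast of the same libraries, so only its SEs could change. Its agreement in value was fixed in advance and is no separate support. Scaling each group to its own 1000000, chosen after seeing the data, shifted the knockdown values by -0.07 under both treatments. CCND3 under DMSO was then not called (0.09, adjusted p 0.137), and CDK4 under DMSO (-0.11, adjusted p 0.0367) and CDK6 under Nutlin-3a (-0.13, adjusted p 0.0209) were. No paired analysis was possible because the tables hold no column of a single library, and for the same reason no library could be left out. Levels from the other pair of tables, which hold the same libraries, differed by at most 0.319%. The SDs of that pair changed 3 calls between neighbouring levels, given with the levels. Depth limits CCNE2 and CCNG2 most, with base means of 186 to 799.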

Other observations

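Among the other cyclins and CDKs, 3 genes whose products belong to the kinase module of Mediator were higher with siRFX7 under both treatments, where 19.9% of all genes were called higher under DMSO and 17.2% under Nutlin-3a. They were singled out after their values were seen, and the module's other subunits were not looked at. In the authors' deposited tables CCNC had 0.76 ± 0.06 (SE) with DMSO and 0.91 ± 0.06 with Nutlin-3a, CDK19 at 0.46 ± 0.07 and 0.48 ± 0.07, and CDK8 at 0.31 ± 0.05 and 0.37 ± 0.06. The 3′ UTRs of CCNC and CDK19 hold the word GACGTA, and that of CDK8 does not. Carriers of GACGTA had medians of 0.19 (DMSO) and 0.18 (Nutlin-3a), against 0.01 without it in both, by the authors' deposited tables. The word came from a scan of these same fold changes, so neither its presence nor the higher medians of its carriers are independent evidence.

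The CDK-activating complex, which phosphorylates CDK2 and CDK4, had subunits that went in opposite directions with siRFX7, also singled out after the fact. The authors' deposited tables gave CDK7 0.37 ± 0.07 (SE) under DMSO and 0.23 ± 0.07 under Nutlin-3a, and CCNH -0.35 ± 0.07 and -0.24 ± 0.07. Neither holds either word in its 3′ UTR. MNAT1, the assembly factor, whose 3′ UTR holds GTATCTA, was at -0.13 ± 0.05 (SE, adjusted p 0.0395) and -0.00029 ± 0.06 (adjusted p 0.998) in the authors' deposited tables.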
